A study of Rattus norvegicus with 12 samples.

Results

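The genes described here are 2 neurotrophins, Ntf3 (neurotrophin-3) and Bdnf (brain-derived neurotrophic factor), and 4 of the receptors that bind neurotrophins or their precursors, Ntrk2, Ntrk3, Ngfr and Sort1. They were picked by name, with their values in these data already known, and make up 6 of the 33294 genes in the count table. Poly(A) RNA-Seq was carried out on the PAC1 line, smooth muscle cells (SMCs) from rat pulmonary artery that can be held in culture either as differentiated cells (PAC1-D) or as proliferating ones (PAC1-P), in 4 groups of 3 libraries. The D1 group was PAC1-D cells given control siRNA, and the P group was PAC1-P cells given control siRNA, so that P and D1 differ in how the cells had been cultured and passaged as well as in state. RBPMS KD1 was PAC1-D cells given siRNA against Rbpms, which encodes an RNA-binding protein that controls splicing in SMCs, and MBNL KD was PAC1-D cells given siRNAs against both Mbnl1 and Mbnl2, which encode muscleblind-like RNA-binding proteins. All groups are 1 rat line, were kept in the same serum-containing medium and received siRNA in 2 rounds. The sample labels and the study's methods give different times for the later round and the harvest, so no time is given here. The 3 libraries of a group are biological replicates of that line by the study's methods, so the spread among them does not cover differences between animals.

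Neurotrophins are secreted as precursors that are cut to mature dimers. The mature forms act through the Trk receptor tyrosine kinases, with Ntrk2 (TrkB) binding BDNF and neurotrophin-4, and Ntrk3 (TrkC) binding neurotrophin-3. Ngfr, the p75 neurotrophin receptor, binds all neurotrophins with lower affinity, and Sort1 (sortilin), a sorting receptor of the VPS10 family, carries proneurotrophins inside cells and forms a receptor with Ngfr for proneurotrophins at the surface. Outside the nervous system, vascular SMCs are known to make neurotrophins and to carry their receptors, in vessel development and after injury.

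Library totals lay between 80842635 and 90771289 counts, and between 19659 and 20904 genes had at least 1 count. Levels are given below as scaled counts, the deposited counts brought to a common library size with TMM factors over the 12 libraries. Even counts under 20 were between 2.39 and 2.73 times as frequent in each library as the odd counts beside them, and the totals exceed the number of reads to which the study reduced each sample, so a count was not treated as a separate fragment. A group was treated as not detecting a gene where its libraries averaged at or under 6 counts, which allows 2 counts for each of 3 fragments, is between 0.0636 and 0.0737 CPM (counts relative to library size) and covers counting error only. The knockdowns lowered their targets. Rbpms went from 13346 scaled counts to 3337 under its siRNA, Mbnl1 from 30833 to 7307, and Mbnl2 from 16016 to 4732. The summed scaled counts of 8 smooth muscle markers, which check the cell type, were 871742 to 916188 in the D1 libraries, 694097 to 704524 in the MBNL KD libraries, 434073 to 449797 in those of RBPMS KD1 and 18688 to 19856 in the P libraries, and all 8 were detected in every group. In MBNL KD 2 of the 8 were higher than in D1, Myh11 (4570 in D1, 6603 in MBNL KD) and Cnn1 (1703 and 1840), and 6 were lower. In bulk RNA, fewer cells of a type and less RNA per cell cannot be told apart.

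Of the 6 genes, 5 were detected in at least 1 group, and Ntrk2 in none. In P, Ntf3, Bdnf, Ntrk3 and Sort1 were lower than in D1 in each of the 3 libraries and Ngfr was higher. Both knockdowns left Ntf3, Ntrk3 and Sort1 below D1, while Bdnf was lower in RBPMS KD1 and higher in MBNL KD. The choice of genes used all 4 groups, so their levels and fold changes are a description and carry no test. For each comparison, a gene was called when its edgeR adjusted p was under 0.05 and its log2 fold change was beyond 1 in either direction. P, RBPMS KD1 and MBNL KD were all compared with the same 3 D1 libraries.

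**Figure D1:**
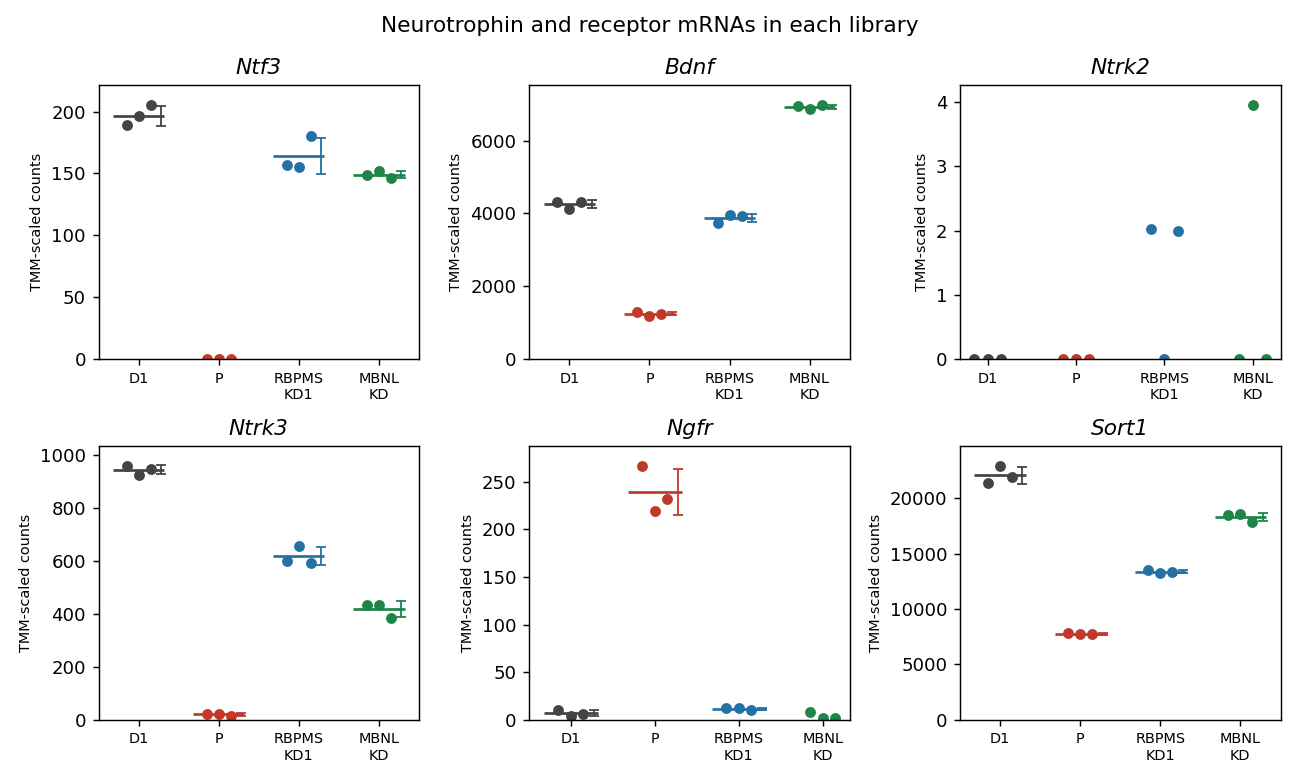
Scaled counts of the 6 genes in each library (y axis, linear from 0, with its own range for each gene), by group, with lines for the mean and error bars for the SD of 3 libraries where the group averaged above 6 counts. Ntf3 lies at 0 in all 3 P libraries, Ngfr lies between 220 and 266 there and at or under 12.2 elsewhere, and Ntrk2 stays at or under 3.95 in every library.

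Ntf3 encodes neurotrophin-3, the main ligand of Ntrk3. Its 3 D1 libraries had 189, 196 and 205 scaled counts, its RBPMS KD1 libraries 157, 155 and 180, and its MBNL KD libraries 149, 152 and 146. The P libraries had no Ntf3 count at all. The 4 groups did not overlap, with D1 highest, RBPMS KD1 next, MBNL KD below it and P at 0, but the gap between the lowest RBPMS KD1 library (155) and the highest MBNL KD library (152) was smaller than the SD of the RBPMS KD1 libraries. The D1 mean was 197 ± 8.08 (SD, n = 3), that of RBPMS KD1 164 ± 14.2 and that of MBNL KD 149 ± 2.96, which is 83.4% and 75.8% of the D1 mean. Set against the limit of 6 counts per library, Ntf3 was at least 34.7-fold lower in P than in D1. The log2 fold change from D1 was -0.26 (SE 0.13) in RBPMS KD1 and -0.39 (SE 0.13) in MBNL KD.

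RefSeq lists 3 transcription starts for Ntf3 in its GRCr8 assembly, on the minus strand of chromosome 4, and 2 of them are 1 base apart. The windows from 250 bases before to 50 bases after a start are shown for the 2 separate starts, because Ntf3 had no count in P while it was detected in the other groups. Neither window shows which start PAC1 cells use, since the counts are per gene. Capitals mark a GC box (GGGCGG, read on both strands), and start 1 lies at chr4:160668858-160669157 and start 2 at chr4:160670573-160670872, both on the minus strand.
Ntf3 start 1: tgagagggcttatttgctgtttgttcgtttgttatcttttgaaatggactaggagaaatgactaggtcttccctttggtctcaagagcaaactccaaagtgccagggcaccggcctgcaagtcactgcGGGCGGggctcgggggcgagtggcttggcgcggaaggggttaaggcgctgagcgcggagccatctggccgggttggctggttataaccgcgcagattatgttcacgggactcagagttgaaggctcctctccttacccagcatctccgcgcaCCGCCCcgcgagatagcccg
Ntf3 start 2: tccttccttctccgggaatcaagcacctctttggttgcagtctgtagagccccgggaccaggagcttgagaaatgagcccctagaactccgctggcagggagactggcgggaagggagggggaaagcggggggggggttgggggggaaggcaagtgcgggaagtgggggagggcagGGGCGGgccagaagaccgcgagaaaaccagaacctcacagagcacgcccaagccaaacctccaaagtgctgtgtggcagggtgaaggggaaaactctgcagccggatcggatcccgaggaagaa
In start 1 the GC box matches lie at bases -122 to -117 and 31 to 36 from the start, and in start 2 at -74 to -69. Of 33469 RefSeq promoter windows of 300 bases, 33.1% hold a GC box. No CArG box, the motif bound by serum response factor (held by 1.64% of the windows), was found in either window.

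Bdnf encodes the ligand of Ntrk2. The D1 libraries had 4329, 4121 and 4311 scaled counts and the P libraries 1281, 1194 and 1249. In RBPMS KD1 the values were 3739, 3952 and 3923, and in MBNL KD 6950, 6864 and 6974. All 4 groups were apart from each other, with MBNL KD highest, then D1, RBPMS KD1 and P. D1 averaged 4253 ± 115, P 1241 ± 43.7, RBPMS KD1 3871 ± 116 and MBNL KD 6929 ± 57.6 (SD, n = 3 each), so that P was at 29.2%, RBPMS KD1 at 91.0% and MBNL KD at 163% of D1. The log2 fold changes from D1 were -1.78 (SE 0.042) in P, -0.13 (SE 0.036) in RBPMS KD1 and 0.71 (SE 0.030) in MBNL KD. In RBPMS KD1 the gap to D1 was small, with the highest RBPMS KD1 library at 3952 and the lowest D1 library at 4121. Bdnf was the only one of the 6 that was higher in MBNL KD than in D1 with groups that did not overlap.

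Bdnf is known for several alternative first exons, each with its own promoter, joined to a shared coding exon. RefSeq lists 6 starts for it on the plus strand of chromosome 3 in GRCr8. The window of start 3 is shown, because it holds the most motif matches of the 6, and capitals mark GC boxes and an AP-1 site (TGANTCA), the motif of the Fos and Jun factors. It lies at chr3:116621721-116622020.
Bdnf start 3: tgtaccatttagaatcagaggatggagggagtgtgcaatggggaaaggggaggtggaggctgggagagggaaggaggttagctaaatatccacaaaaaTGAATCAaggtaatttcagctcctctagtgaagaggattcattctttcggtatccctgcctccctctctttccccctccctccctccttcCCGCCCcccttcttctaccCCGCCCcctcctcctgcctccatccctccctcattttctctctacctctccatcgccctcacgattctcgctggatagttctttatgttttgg
The AP-1 match lies at bases -152 to -146 and the GC boxes at -62 to -57 and -43 to -38 from the start. An AP-1 site is held by 7.33% of all windows. The window of start 2 held a TATAAA at -250 to -245 and an E box (CACGTG) at 20 to 25, motifs held by 14.2% and 6.42% of all windows, and the other 4 Bdnf windows held none of the 6 motifs searched. The exact sequence TGACGTCA of the cyclic AMP response element, held by 1.83% of windows, was in none of the 10 windows of these genes. Variants of that element were not searched, and counts per gene do not tell the starts apart.

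Ntrk3 encodes TrkC, the receptor of neurotrophin-3. It had 959, 927 and 948 scaled counts in the D1 libraries, and 22.6, 22.7 and 15.2 in the P libraries. The RBPMS KD1 libraries had 602, 656 and 594 and the MBNL KD libraries 435, 435 and 384. No groups overlapped, and the order was D1, RBPMS KD1, MBNL KD and P, as for Ntf3. D1 averaged 945 ± 16.4 and P 20.2 ± 4.32, while RBPMS KD1 averaged 617 ± 33.9 and MBNL KD 418 ± 29.4 (SD, n = 3), which set P at 2.13%, RBPMS KD1 at 65.4% and MBNL KD at 44.2% of D1. Ntrk3 was 46.6-fold lower in P than in D1 (log2 -5.54, SE 0.13), 1.53-fold lower in RBPMS KD1 (log2 -0.61, SE 0.066) and 2.25-fold lower in MBNL KD (log2 -1.17, SE 0.072). In limma on the deposited normalised values, the log2 fold change in P was -4.26. The raw counts in P, 24, 24 and 16, were above the limit of 6, so a low level of Ntrk3 remained detectable there. The gene overlaps 1 non-coding gene in the RefSeq annotation of GRCr8, which had no count in any library.

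Ntrk2 encodes TrkB, the receptor of BDNF. It had no count in any D1 or P library. The RBPMS KD1 libraries had 2, 0 and 2 raw counts and the MBNL KD libraries 0, 4 and 0, so 3 of the 12 libraries had any count and none reached the limit of 6. No difference between groups was detectable at this depth, and Ntrk2 did not pass edgeR's filter in any comparison. In the RefSeq annotation of GRCr8 it overlaps 7 other genes, of which 6 were in the count table, with no count in any library, and 1 was not analysed here.

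Ngfr encodes the p75 receptor, a member of the tumour necrosis factor receptor family that many peripheral glia and neural crest derivatives carry. Its P libraries had 266, 220 and 231 scaled counts. The D1 libraries had 10.2, 4.13 and 6.12, the RBPMS KD1 libraries 12.1, 12.2 and 10.0, and the MBNL KD libraries 7.95, 1.98 and 2.18. All P libraries were above all others, D1 overlapped both knockdowns, and the RBPMS KD1 libraries were all above the MBNL KD libraries by a few counts. P averaged 239 ± 24.4, D1 6.82 ± 3.10, RBPMS KD1 11.4 ± 1.22 and MBNL KD 4.04 ± 3.39 (SD, n = 3). Ngfr was 34.4-fold higher in P than in D1 (log2 5.10, SE 0.26). The difference was log2 4.12 in limma after quantile normalization, and 2.46 in limma on the deposited normalised values, which start at 35. In RBPMS KD1 its log2 fold change was 0.73 with an SE of 0.52. MBNL KD averaged under the limit of 6 counts, and Ngfr did not pass the filter in that group against D1.

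Sort1 encodes sortilin. The D1 libraries had 21375, 22912 and 21941 scaled counts, and the P libraries 7845, 7749 and 7701. In RBPMS KD1 it had 13513, 13280 and 13356 and in MBNL KD 18502, 18535 and 17851. The 4 groups were apart, in the order D1, MBNL KD, RBPMS KD1 and P, so the knockdowns stood in the opposite order to that of Ntf3 and Ntrk3. D1 averaged 22076 ± 777, MBNL KD 18296 ± 386, RBPMS KD1 13383 ± 119 and P 7765 ± 73.0 (SD, n = 3), which put MBNL KD at 82.9%, RBPMS KD1 at 60.6% and P at 35.2% of D1. The log2 fold changes from D1 were -1.51 (SE 0.027) in P, -0.72 (SE 0.027) in RBPMS KD1 and -0.26 (SE 0.027) in MBNL KD.

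RefSeq lists 1 start for Sort1, and its window is shown because Sort1, Bdnf and Ntf3 were all lower in P. It lies at chr2:198612245-198612544 on the plus strand of GRCr8, and capitals mark a GC box at bases -27 to -22 from the start.
Sort1 start 1: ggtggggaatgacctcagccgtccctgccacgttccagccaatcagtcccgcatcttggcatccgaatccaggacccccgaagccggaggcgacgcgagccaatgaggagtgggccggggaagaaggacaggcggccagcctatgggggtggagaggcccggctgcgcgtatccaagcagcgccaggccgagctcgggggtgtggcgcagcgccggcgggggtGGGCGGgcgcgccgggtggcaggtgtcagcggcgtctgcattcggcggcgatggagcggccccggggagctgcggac
The GC box was the only motif that windows of all 3 genes held, and none of the 10 windows held a CArG box. Ntrk2, Ntrk3 and Ngfr had no entry in the promoter table.

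In P against D1, 27.6% of the 16814 genes tested were called, 16.4% as higher and 11.2% as lower. Of the 6 genes, 1 was called higher, Ngfr, and 4 were called lower, Ntf3, Bdnf, Ntrk3 and Sort1, while Ntrk2 was not tested. The same 5 had an adjusted p under 0.05 with no fold threshold, as did 77.9% of all genes tested. The median log2 fold change of the 5 was -1.78, beside 0.02 over all genes.

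In RBPMS KD1 against D1, 4.68% of 15904 genes were called and none of the 5 genes tested was. With no fold threshold 3 of the 5 passed, Bdnf, Ntrk3 and Sort1, all lower, beside 59.1% of all genes, but under both limma alternatives Ntf3 passed and Bdnf did not. The median of the 5 was -0.26, beside 0.00. In MBNL KD against D1, 10.2% of 16053 genes were called, 4.14% as lower, and 1 of the 4 genes tested was called, Ntrk3, as lower. With no fold threshold all 4 passed, Bdnf as higher and Ntf3, Ntrk3 and Sort1 as lower, beside 67.5% of all genes, and their median was -0.33, beside 0.01. Since the genes were chosen with these contrasts known, nothing is read from the counts. The shares of all genes tested whose groups did not overlap were 79.1% for P, 63.4% for RBPMS KD1 and 70.3% for MBNL KD against D1, so a gap between groups is common in these libraries.

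**Figure D2:**
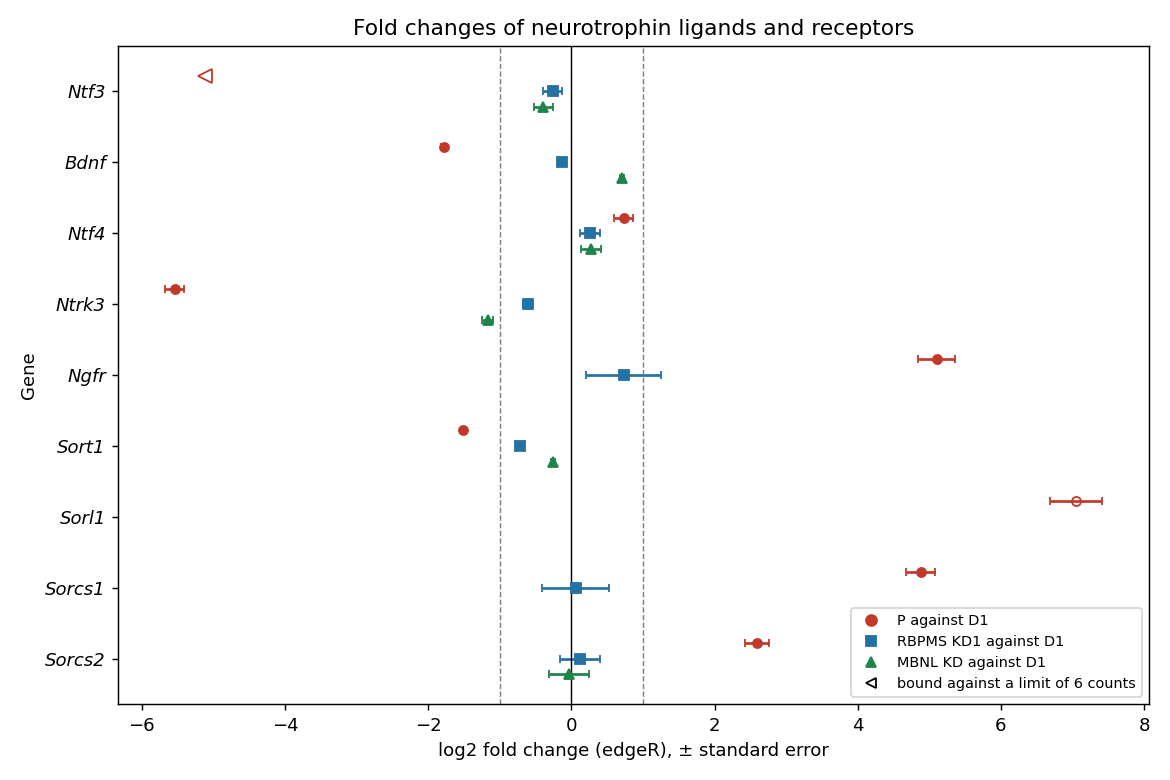
log2 fold changes from D1 (x axis) of the 5 detected genes and of Ntf4, Sorl1, Sorcs1 and Sorcs2 where they were tested, in P, RBPMS KD1 and MBNL KD, with bars for SE and dashed lines at a log2 fold change of 1 in each direction. The open triangle is a bound against 6 counts, which puts Ntf3 in P at -5.12, and the open circle marks Sorl1, whose D1 libraries were at or under 6 counts.

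The knockdowns were also compared with each other, without the D1 libraries. Here 11.9% of 16111 genes were called, and 4 of the 6 genes were tested with none called. With no fold threshold 3 of the 4 passed, Bdnf, Ntrk3 and Sort1, beside 69.5% of all genes. Bdnf was higher in MBNL KD by a log2 fold change of 0.84 (SE 0.032) and Sort1 by 0.45 (SE 0.025), and Ntrk3 was lower by a log2 fold change of -0.56 (SE 0.082). Ntf3 differed by -0.14 (SE 0.14), a difference about as large as its SE. Ngfr did not pass the filter. It could be tested in 4 of the 6 fits that left out a library. There it was called at a log2 fold change of -2.40 without MBNL KD replicate 1, the MBNL KD library with the most Ngfr counts. In the others it was not called, at -1.56, -1.14 and -1.19. It was called at -1.45 in 1 fit of all 12 libraries. It was not called at -1.47 with no filter on low counts, nor at -0.29 in limma on the deposited normalised values. Over all genes tested the median log2 fold change was 0.01, and 71.8% of genes had groups that did not overlap.

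Of 5 other ligands and receptors of the family, taken by role, 4 could be tested in P against D1. Of the 4, 3 were called higher and none lower, beside 16.4% and 11.2% of all genes tested. By adjusted p alone all 4 were higher, beside 77.9% of all genes in either direction. Ntf4, which encodes neurotrophin-4, a second Ntrk2 ligand, averaged 145 ± 9.25 in D1 and 241 ± 12.3 in P (log2 0.73, SE 0.13, edgeR adjusted p = 6.5e-06). RBPMS KD1 averaged 174 ± 13.2 and MBNL KD 176 ± 19.7, with edgeR adjusted p of 0.12 and 0.086.

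**Figure D3:**
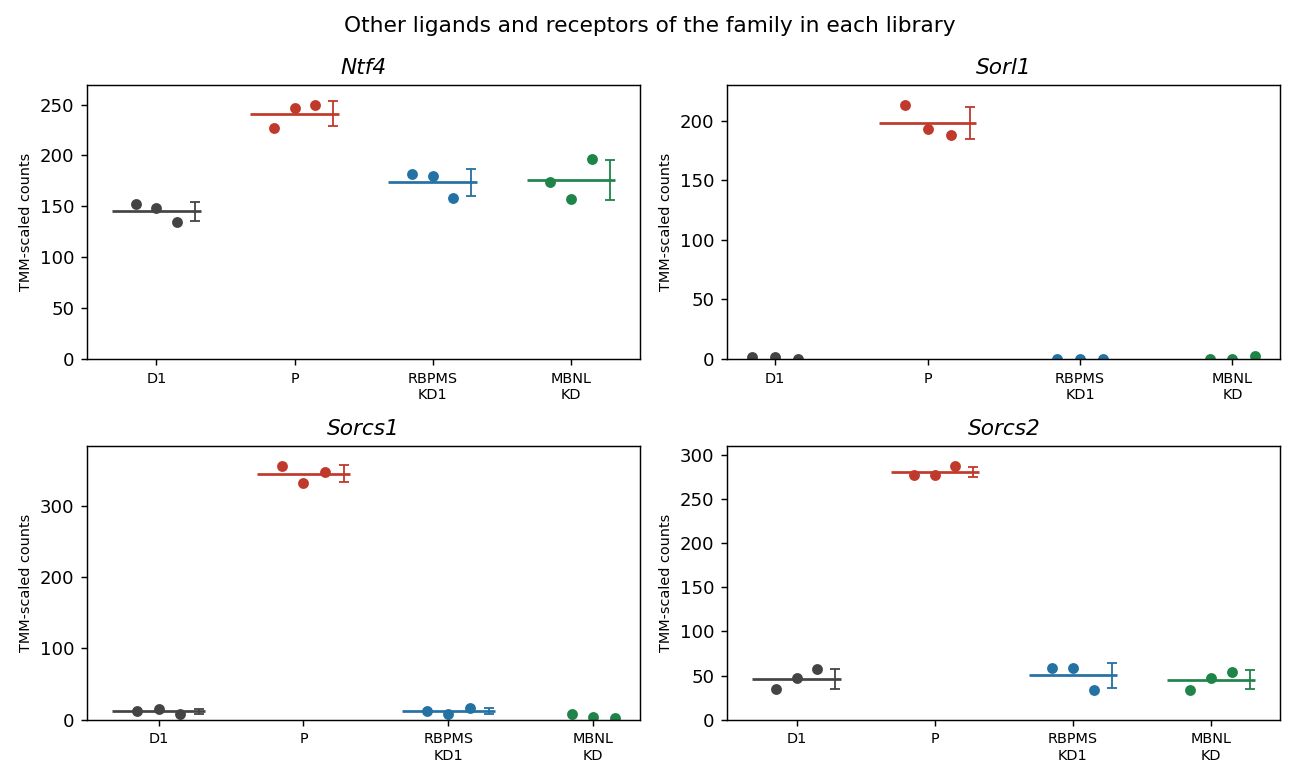
Scaled counts in each library (y axis, linear from 0, with its own range for each gene) of Ntf4, Sorl1, Sorcs1 and Sorcs2, by group, with lines for the mean and error bars for the SD of 3 libraries where the group averaged above 6 counts. All 4 genes lie higher in the P libraries than in every other library.

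The VPS10 receptors Sorl1, Sorcs1 and Sorcs2 rose in P, where Sort1 was lower. Sorl1, which sorts cargo in endosomes, was at 2.04, 2.06 and 0 scaled counts in D1 and at 213, 193 and 188 in P (edgeR adjusted p = 2.5e-18). Sorcs1 rose from 11.6 ± 3.19 to 345 ± 12.1 (log2 4.88, SE 0.20, edgeR adjusted p = 4.8e-21). Sorcs2, a proneurotrophin receptor that also pairs with Ngfr, rose from 46.5 ± 11.2 to 280 ± 5.92 (log2 2.59, SE 0.17, edgeR adjusted p = 1.7e-15). Sorcs3 had no count in any library. In RBPMS KD1, with 3 of the 5 tested, and in MBNL KD, with 2 tested, none was called by edgeR, with or without the fold threshold. The median log2 fold changes of those tested were 3.73 in P, 0.12 in RBPMS KD1 and 0.12 in MBNL KD.

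Summed levels of markers of other cell types differed between P and D1, except for leukocyte markers, whose sums overlapped. The 10 neuronal markers summed to 11250 to 11637 scaled counts in P, against 1476 to 1580 in D1, and the RBPMS KD1 libraries were at 1549 to 1702 and the MBNL KD libraries at 898 to 1006, with 5 of 10 above 6 counts in P and 5 in D1. Stmn2 (7095 in P) made up most of the P sum, and Elavl4 was at 0 in all 12 libraries. Map2 also rose, from a mean of 1023 in D1 to 4148 in P, while Syt1 went the other way (299 to 163) and Tubb3 overlapped. The 10 Schwann and glial markers, a list of interest for Ngfr, summed to 9071 to 9258 in P and 6638 to 7046 in D1, mostly Pmp22, with Cdh19 and Foxd3 at 0 throughout. The 6 endothelial markers summed to 481 to 599 in P and 66.3 to 72.5 in D1, with Cldn5 at 0. The 8 fibroblast and pericyte markers summed to 56669 to 57992 in P and 122528 to 123147 in D1, where Pdgfrb alone went from a mean of 81271 in D1 to 17343 in P while Dcn (1146 to 1898) and Lum (11692 to 14575) went the other way, and the 6 leukocyte markers to 82.9 to 134 in P and 77.6 to 100 in D1. The part of these cell types in the levels of Ngfr and the other genes was not tested. In RBPMS KD1, where the smooth muscle sum lay below D1, Schwann and glial markers summed to 8125 to 8520, endothelial markers to 162 to 164, fibroblast and pericyte markers to 135438 to 136637 and leukocyte markers to 87.1 to 121. In MBNL KD these lists summed to 6832 to 7370, 82.9 to 125, 127286 to 128714 and 127 to 138, and their part in the levels of the 6 genes was not tested either.

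The proteins that cut and clear proneurotrophins bear on what the ligands become. Of 15 such genes, 8 were tested in P against D1, with a median log2 fold change of -0.58. Of the 8, 2 were called higher and 3 lower, beside 16.4% and 11.2% of all genes tested. Adjusted p alone put 3 higher and 5 lower, beside 77.9% of all genes. Cpe, a carboxypeptidase that also takes part in sorting proBDNF, fell from 44886 to 7303 scaled counts (log2 -2.62, SE 0.032, edgeR adjusted p = 3.3e-36), and Serpini1 (neuroserpin, log2 -1.98, SE 0.042, edgeR adjusted p = 2.2e-29) and the convertase Pcsk5 (log2 -1.81, SE 0.11, edgeR adjusted p = 2.3e-16) fell with it. Pcsk6, another proprotein convertase, was near 0 in D1, with 1 library at 2.04 scaled counts and 2 at 0, and averaged 2519 in P (edgeR adjusted p = 2.3e-33). By adjusted p alone, 6 of 9 were higher and 2 lower in RBPMS KD1, beside 59.1% of all genes. In MBNL KD 5 of 10 were higher and 1 lower, beside 67.5%. With the fold threshold, 3 of 9 were called higher and none lower in RBPMS KD1 (median 0.25), beside 4.68% of all genes called. In MBNL KD 3 of 10 were called higher and none lower (median 0.22), beside 10.2%. In both these were the convertases Pcsk1 and Pcsk2 and the metalloproteinase Mmp9, which were named after their values were seen and were under 100 scaled counts in every group. In RBPMS KD1 Pcsk1 rose by log2 1.22 (edgeR adjusted p = 0.013), Pcsk2 by 2.71 (edgeR adjusted p = 4.4e-07) and Mmp9 by 1.52 (edgeR adjusted p = 0.0015), and in MBNL KD the log2 fold changes were 1.86, 2.40 and 1.92. These 3 were all the calls among the other pathway genes in RBPMS KD1, and that number was 1 when at least 10 counts were required in every library, 1 in limma on the deposited normalised values and 2 without D1 replicate 3. Between the knockdowns, Plat (tissue plasminogen activator) was higher in MBNL KD (log2 1.07, SE 0.027, edgeR adjusted p = 1.0e-24).

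Of 15 partners of Ngfr and Sort1 in the table, all were tested. In P 1 was called higher and 1 lower (median -0.14), beside 16.4% and 11.2% of all genes tested. By adjusted p alone 6 were higher and 8 lower, beside 77.9% of all genes. Lingo1, a co-receptor that binds Ngfr, fell from 1062 to 252 scaled counts (log2 -2.07, SE 0.077, edgeR adjusted p = 2.5e-22) where Ngfr itself was higher, and Bex3, which binds the Ngfr intracellular domain, rose (log2 1.04, SE 0.040, edgeR adjusted p = 6.8e-22). None of the 15 was called in either knockdown, with medians of 0.05 in RBPMS KD1 and -0.16 in MBNL KD. Adjusted p alone put 7 higher and 5 lower in RBPMS KD1, and 2 higher and 9 lower in MBNL KD. These stand beside 59.1% and 67.5% of all genes. Of 31 Trk adaptors and regulators tested in P, 4 were called higher and 4 lower (median 0.13), beside 16.4% and 11.2% of all genes tested. By adjusted p alone 17 were higher and 12 lower, beside 77.9% of all genes. The adaptors Shc3 (log2 2.41, SE 0.12, edgeR adjusted p = 7.2e-19) and Dok5 (log2 1.90, SE 0.13, edgeR adjusted p = 3.7e-15) rose, and Sh2b2 (log2 -1.73, SE 0.12, edgeR adjusted p = 1.5e-14) and Slitrk5 (log2 -1.56, SE 0.12, edgeR adjusted p = 2.7e-13) fell. None of 30 was called in RBPMS KD1 (median -0.03), where adjusted p alone put 11 higher and 10 lower. In MBNL KD adjusted p alone put 9 of 30 higher and 15 lower (median -0.10). Only 2 were called, both lower, beside 4.14% of all genes tested. They were Gab2 (log2 -1.16, SE 0.031, edgeR adjusted p = 9.4e-24) and Sh2b3 (log2 -1.08, SE 0.036, edgeR adjusted p = 2.3e-21), both adaptors downstream of receptor tyrosine kinases. In limma on the deposited normalised values 1 of the other pathway genes was called in MBNL KD, so at most 1 of these 2 was. Sh2b3 was also lower in MBNL KD than in RBPMS KD1 (log2 -1.29, SE 0.036, edgeR adjusted p = 1.2e-23).

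Members of the GDNF family, another set of neurotrophic ligands and receptors, were mostly at low counts, with 5 of 10 tested in P and a median log2 fold change of -0.66. The 1 gene called was Nrtn, named after its values were seen, which had 13.2, 17.0 and 11.4 scaled counts in P and none in D1, or at least 2.25-fold higher. None of 4 was called in RBPMS KD1 or MBNL KD. Over all 77 other pathway genes in the table, 30.2% of the 63 tested were called in P (11 higher, 8 lower), 4.92% of 61 in RBPMS KD1 (3 higher), and 8.20% of 61 in MBNL KD (3 higher, 2 lower). These stand beside 27.6%, 4.68% and 10.2% over all genes tested.

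**Figure D4:**
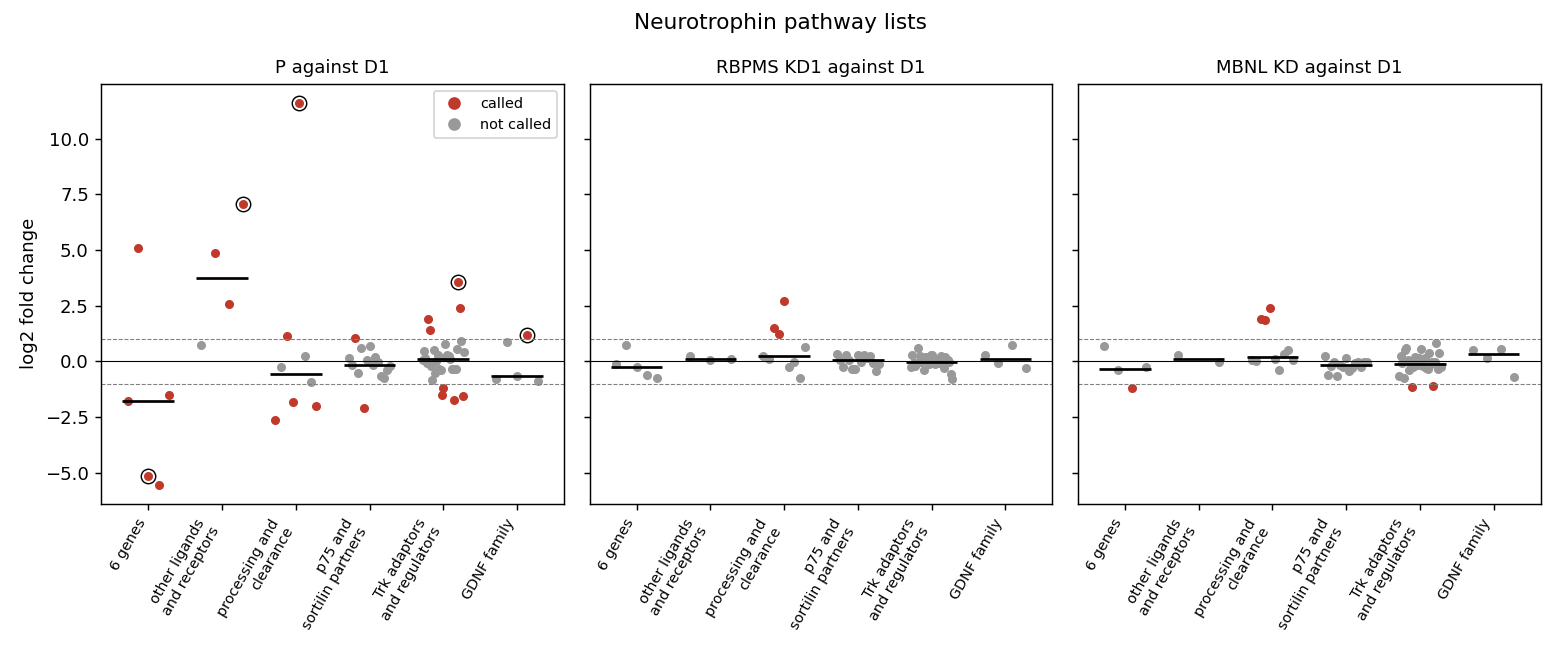
log2 fold changes from D1 (y axis) of each gene tested among the 6 genes and in the lists of other neurotrophin ligands and receptors, processing and clearance, partners of Ngfr and Sort1, Trk adaptors and the GDNF family, in P, RBPMS KD1 and MBNL KD. Red points were called and grey points were not, ringed points have a group averaging at or under 6 counts, and black bars are medians, which lie between -1.78 for the 6 genes and 3.73 for the other ligands and receptors, both in P.

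For each of the 5 detected genes, the genes with the nearest pattern over the 12 libraries were found among 17510 genes, as the smallest root mean square difference of centred log2 CPM. The 12 libraries share 4 groups, so these values describe likeness of the group means above all. The P value of Ntf3, which had no count there, is set by the prior count of 2, so its distances and r values rest on that choice. Nearest to Ntf3 was Abca8a, a lipid transporter, with a difference of 0.102 (Pearson r 0.999) and mean levels of 829, 6.93, 747 and 674 scaled counts in D1, P, RBPMS KD1 and MBNL KD, followed by Lsamp (0.318) and Pde1a (0.349). Nearest to Bdnf was the protocadherin Pcdhb3 at 0.0703 (r 0.997), with 426, 124, 369 and 670 in the same order, followed by Prxl2c (0.0944) and Cyp1b1 (0.116). Ntrk3 had Bcam (0.338), S1pr1 (0.339) and Aoc3 (0.343) nearest, Ngfr had Igfbp4 (0.364), Apol3 (0.437) and Mylip (0.446), and Sort1 had Tead3 (0.0719), Simc1 (0.0943) and Rsu1 (0.0948). Genes with r over 0.95 numbered 992 for Ntf3, 821 for Bdnf, 742 for Ntrk3, 915 for Ngfr and 284 for Sort1, so each pattern was common to many genes.

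**Figure D5:**
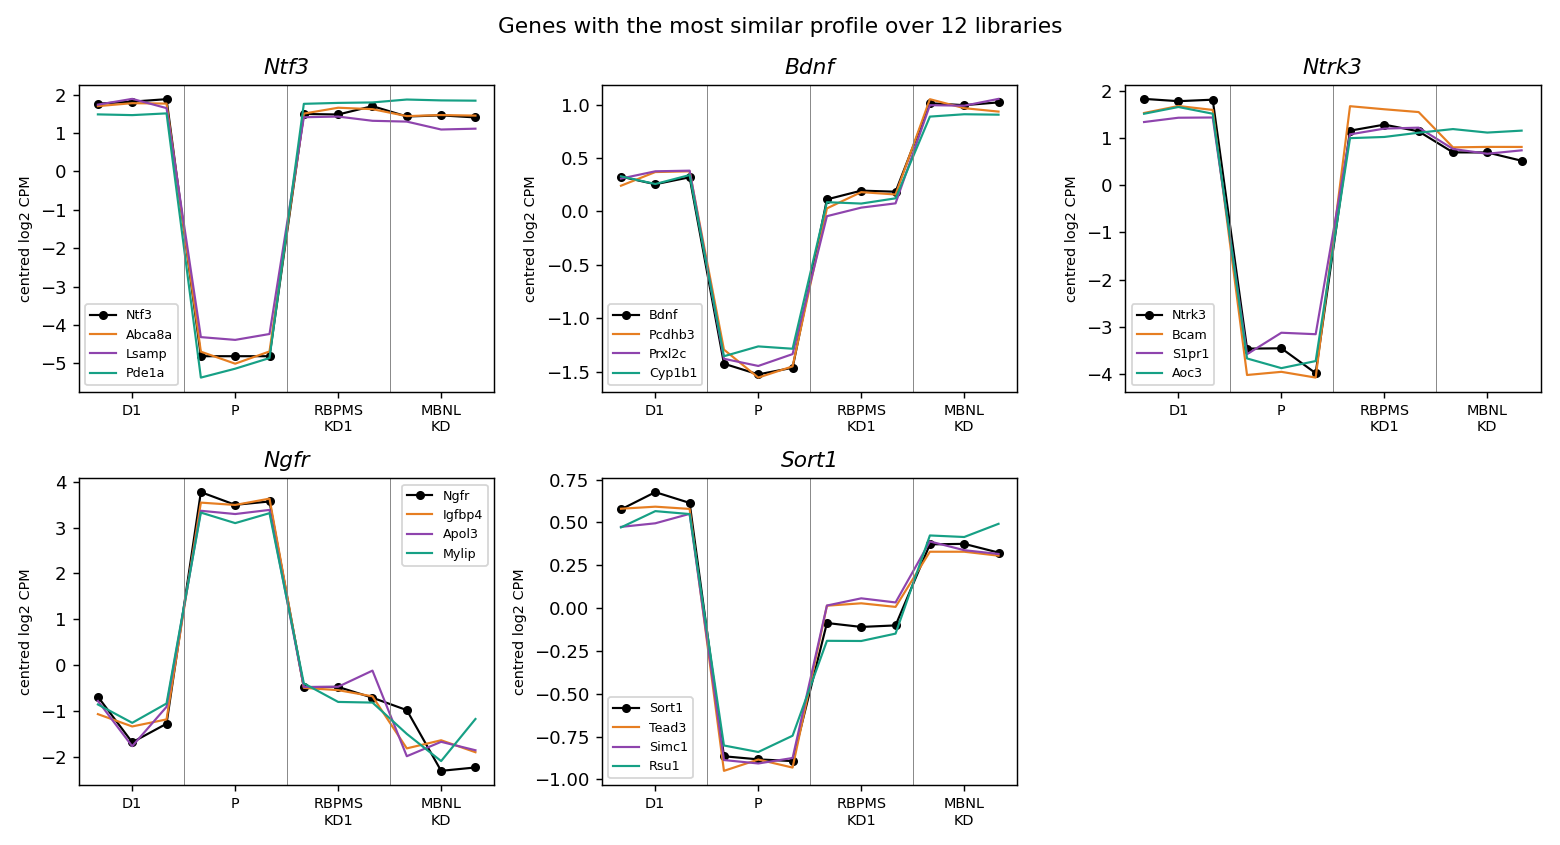
Centred log2 CPM over the 12 libraries of each detected gene (black line with dots) and of its 3 nearest genes (coloured lines). The lines of Sort1 and Bdnf lie within root mean square differences of 0.116 of their 3 nearest genes, and those of Ngfr within 0.446.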

How the data were processed

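Poly(A) RNA-Seq of rat PAC1 cells gave 12 libraries, 3 in each of 4 groups taken from the sample labels. Gene counts were those the authors deposited, made from subsampled reads with STAR (2.7.11b in the submitters' notes) on mRatBN7.2 and counted per gene symbol. The strand setting and the counting of mates are not given in the sources used here, and bounds use a limit of 6 counts, chosen after the data had been seen. The normalised table deposited by the authors holds signal values after noise correction and quantile normalization, with a smallest value of 35, and was used for an alternative only.

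The 6 genes, the gene lists and the tests were chosen with earlier results of these data known. edgeR 4.0.16 in R 4.3.3 was run separately on the 6 libraries of each comparison (filterByExpr, TMM, quasi-likelihood F test, Benjamini-Hochberg over all genes tested) and genes were called as the study's methods do, by an adjusted p under 0.05 together with a log2 fold change over 1 in size. SEs come from the F statistic, and means and SDs are over 3 libraries. Named genes were the 6, 5 other ligands and receptors and, of each other list, at most 4 called genes per comparison that reached 100 scaled counts in 1 group, and the 3 nearest genes by pattern (prior count 2). Pcsk1, Pcsk2, Mmp9 and Nrtn lie outside this rule and were named after their values were seen, as were the marker genes. The lists leave out 3 genes of the pathway that are not reported here. Gene lengths were not used, so levels of different genes are not compared. No pair of replicates was identical or within sampling noise, with chi-square statistics per gene between 3.68 and 12.8, the highest for MBNL KD replicate 3, the shallowest library. Promoter windows are RefSeq sequences of GRCr8, a newer assembly than that of the counts, and 3 of the 6 genes had an entry. Motifs searched on both strands were the GC box, TATAAA, AP-1, cyclic AMP response element, E box and CArG box. DESeq2 1.42.0 and limma 3.58.1 served for alternatives, and the procedure was tested on simulated data.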

Additional observations from a re-analysis of the deposited data

How the results depend on the processing

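For the 6 genes, no alternative turned a direction or ended a call of a single gene that it could test, where a call needs both the adjusted p and the fold. 169 counts stayed within 1.5 times, and 266 single-gene values stayed called or not called. Single criteria were crossed in RBPMS KD1, by the adjusted p of Ntf3 and Bdnf in both limma alternatives and by the fold of Ngfr without D1 replicate 1 (log2 1.14). The sizes of folds of genes near 0 in a group did move. In P against D1, Ngfr went from log2 5.10 to 4.12 and 2.46, Ntf3 to -6.88 and -2.90 (its edgeR value depends on the prior count), and Ntrk3 from -5.54 to -5.83 and -4.26, in limma after quantile normalization and on the deposited normalised values. Requiring at least 10 counts in every library left 3 of the 6 called in P and 2933 genes in all, since genes near 0 in a group drop out, and 1 other pathway gene in RBPMS KD1 and 3 in MBNL KD. Without a fold threshold, 13103, 9393, 10833 and 11202 genes passed in P, RBPMS KD1 and MBNL KD against D1 and in MBNL KD against RBPMS KD1. Among the 6 genes, 3, 4 and 3 then passed in the last 3 of these, and of the other pathway genes 60, 42, 43 and 41 in the 4 comparisons. limma on the deposited normalised values, which start at 35, called 209 genes in RBPMS KD1, 784 in MBNL KD and 1050 between the knockdowns, with 1 other pathway gene in RBPMS KD1 and 1 in MBNL KD. In 1 fit of all 12 libraries, 4 other pathway genes were called between the knockdowns, where 1 of the 6 genes, Ngfr, was called as well (log2 -1.45). Leaving out each library in turn gave 0 to 1 of the 6 genes between the knockdowns, the 1 being Ngfr without MBNL KD replicate 1. The cause was not tested where none is given. limma after quantile normalization, which changes the test as well as the scaling, moved the share of calls that were higher from 59.4% to 46.4% in P, from 65.4% to 54.8% in RBPMS KD1 and from 59.6% to 51.6% in MBNL KD, and limma on the normalised values gave 50.4%, 50.2% and 49.5%.

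Replicate numbers are not described as pairing libraries, and same-numbered libraries did not deviate together. With the replicate number as a block, 4593, 730, 1634 and 1915 genes were called in the 4 comparisons, and 5, 0, 1 and 0 of the 6 genes, as without the block. The depth sets no level for Ntrk2 beyond the limit of 6 counts, and Ngfr outside P rests on at most 12 counts a library.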
